A study of Mus musculus with 17 samples.

Results

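The orbitofrontal cortex (OFC) of mice classed as perseverers was compared with that of renouncers after oDASS, optogenetic dopamine neuron self-stimulation, a procedure in which an animal works to activate its own dopamine neurons with light. Perseverers are the animals the labels call addicted, and renouncers those they call non-addicted. The comparison rests on 6 of the 17 libraries of the series, chosen by their labels alone. They are 3 perseverer and 3 renouncer dissections of the OFC, each a bulk RNA library made from a piece of brain tissue. The mice of both groups belong to the DAT-cre line, which places Cre recombinase under the dopamine transporter gene, so that Cre acts in dopamine neurons and not in the cortical cells whose RNA was read. Both groups went through the protocol, so neither is an untreated control. The age and sex of the mice and the opsin were not given in the sources used here. The labels number the replicates and do not say that they are separate animals, so the p-values measure only the spread between these samples, which may be technical. The series also holds 6 dissections of the medial prefrontal cortex (mPFC) taken after the protocol, 3 of each phenotype, which are set beside the OFC below, and 5 brain tissue imprints of the OFC taken before it, which were not used.

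The OFC holds values of expected outcomes and is used when an animal has to give up a choice that no longer pays. Its excitatory neurons project to the striatum, and the strength of those synapses is a known site of plasticity in animals that go on stimulating their dopamine neurons despite punishment. Local inhibitory neurons, many of which release neuropeptides such as somatostatin or VIP, set how strongly the excitatory neurons respond. A dissection also takes in glia, blood vessels and, at the surface, meninges. In such bulk tissue, fewer cells of a type and less RNA per cell cannot be told apart.

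Total counts per library lay between 13997596 and 20945108. Cortical markers were present in each library: Slc17a7, which loads glutamate into the vesicles of cortical pyramidal neurons, lay between 1270 and 1730 CPM (counts scaled to a common library total), and Cux2, an upper-layer transcription factor, between 34.4 and 58.0. Correlations of log2 expression between pairs of libraries ran from 0.967 to 0.989. The leading principal component held 34.2% of the variance and did not order the libraries by phenotype, with perseverers at -11, -33.1 and 24.8 and renouncers at -24.7, 32.7 and 11.4. On the next component (27.1%) renouncer replicate 3 stood apart at -46.8, the other 5 libraries lying between 1.58 and 20.4. Transcripts of 4 genes of the Y chromosome were present in 6 of 6 libraries, and Xist did not exceed 0.046 CPM. Renouncer replicate 2 had the highest levels of meningeal, infiltrating immune and interferon-stimulated genes.

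No gene passed the test. Of 14621 genes measured above a low-count filter, 0 (0.0%) reached an adjusted p under 0.05 with edgeR's quasi-likelihood test, and the smallest adjusted p was 0.951. DESeq2 and limma also gave 0. At an unadjusted p under 0.05, edgeR gave 377 genes (2.58%), 242 higher in perseverers (1.66%) and 135 lower (0.923%), DESeq2 gave 420 and limma 950. With no difference, a share of 0.05 of the genes is expected at that threshold. The shares with edgeR and DESeq2 (2.87%) lay below it, and that with limma (6.5%) above. The edgeR number depended on single libraries: it was 234 without perseverer replicate 1, 574 without perseverer replicate 2, 1333 without renouncer replicate 1 and 183 without renouncer replicate 3, while the count past the adjusted threshold was 0 in each of the 6 leave-outs. Higher genes made up 64.2% of the 377, and 50.7% of 375 once each library's trend of expression with gene length had been removed. They made up 27.2% without perseverer replicate 3 and 76.3% without perseverer replicate 2. The values of the 3 perseverers and the 3 renouncers did not overlap in 1344 genes (9.19%), 800 with perseverers above (5.47%) and 544 with perseverers below (3.72%). With 3 against 3 libraries and no difference, such separation in either direction is expected by chance in 10% of genes.

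The intervals rest on the same spread between these samples as the p-values. They are given gene by gene, with no allowance for the number of genes tested. The median standard error (SE) of a log2 fold change, perseverer minus renouncer, was 0.21. The 95% interval lay wholly within 2-fold in either direction for 11530 genes (78.9%), and for 9490 of the 9750 genes with a mean of 10 CPM or more (97.3%). In counts simulated from these libraries, with each gene drawn independently, the edgeR test found 68.1% of 2-fold changes and 5.97% of 1.5-fold changes. Variation that many genes share within a library was not simulated, so these percentages may not hold for the real counts. A fold change given below is thus a value with its error, and a p that misses the threshold does not show that the groups are alike.

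Genes of the neuropeptide list lay mostly lower in perseverers. The list also takes in genes that code for no neuropeptide, such as the receptor gene Npr3 and the neurotrophin gene Bdnf. Neuropeptides are released from inhibitory and some excitatory neurons during sustained firing and act on receptors coupled to G proteins or guanylyl cyclase. Of 20 listed genes 18 were measured, and 14 had a negative fold change, with a median of -0.13 against 0.001 over all genes tested, of which 49.8% were negative and 50.2% positive. None of the 18 passed the test. In 6 of the 18 the 3 perseverers lay below the 3 renouncers (3.72% of all genes), and in 0 above (5.47%). The list was chosen with earlier results of these data known, so these counts are a description and not a test. The 6 were Npr3, Vip, Grp, Crh, Cartpt and Sst, of which Crh and Cartpt are named because their groups do not overlap, chosen after their values were seen. Matches from the promoters of the 4 of them held in the RefSeq table (GRCm38.p6) are shown because several neuropeptide genes are textbook targets of the cyclic AMP response element, whose core is TGACG. The 150 bases before each start site of that table were searched, and each run below is the match with 10 bases on either side, 5′ to 3′ on the strand of the gene, with TGACG or its reverse complement CGTCA in capitals. Where the palindrome TGACGTCA occurs, the matches on both strands overlap.
Sst: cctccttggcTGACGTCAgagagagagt
Vip: atcactactgTGACGtctttcgggg
Cartpt: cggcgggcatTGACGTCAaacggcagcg
Npr3: gagcacacacTGACGcccagccaaa
The runs are chr16:23890875-23890902 (minus strand) for Sst, chr10:5639129-5639153 (plus strand) for Vip, chr13:99900778-99900805 (minus strand) for Cartpt and chr15:11907407-11907431 (minus strand) for Npr3. Those of Sst, Cartpt and Npr3 lie inside the span annotated for the gene, so they precede the start site in the table but not the outermost start of the gene. Sst and Cartpt hold the full palindrome, and Vip and Npr3 a single core. Of the 20 listed genes 16 had a promoter in the table, with 23 start sites, and 12 of these sites (52.2%) held a match, against 13.3% of 32851 windows over all genes. The palindrome stood in 1.36% of all windows. Because several listed genes are textbook targets of the element, a share above that of all genes follows from the choice of list. Matches also stood before members whose groups overlap, such as Cck, Tac1, Bdnf and Scg2, and Scg2 holds the palindrome. A match is thus not particular to the members whose groups do not overlap. It describes the letters and says nothing about binding in these animals.

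Npr3 codes for the receptor that clears natriuretic peptides from the extracellular space and lies on chromosome 15 (11839896 to 11907837, GRCm38). It stood at 4.05, 4.74 and 5.06 CPM in the perseverers and at 8.24, 12.9 and 6.94 in the renouncers. The groups do not overlap, and renouncer replicate 2 is the highest. The log2 fold change was -1.02 ± 0.28 (SE; edgeR adjusted p = 0.951), with values from -1.19 to -0.74 when each library was left out. Vip, the peptide of interneurons that inhibit other interneurons, stood at 94.6, 94.8 and 102 CPM in perseverers and at 110.8, 112.8 and 149 in renouncers. The groups are apart, with renouncer replicate 3 highest, and the log2 fold change was -0.35 ± 0.16 (-0.43 to -0.21 over the leave-outs).

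Sst codes for somatostatin, which marks interneurons that contact dendrites, and stood at 293, 268 and 230 CPM in perseverers and at 308, 295 and 316 in renouncers. Perseverer replicate 1 and renouncer replicate 2 lie close together, and the log2 fold change was -0.22 ± 0.15. Grp, gastrin-releasing peptide, was low in the OFC, at 3.76, 4.36 and 2.60 CPM against 5.48, 5.43 and 5.49, a log2 fold change of -0.61 ± 0.28. The renouncers are nearly equal, and perseverer replicate 3 is the lowest. Crh, corticotropin-releasing hormone, lay at 11.2, 11.1 and 8.52 CPM in perseverers against 11.7, 16.1 and 13.5 in renouncers (-0.41 ± 0.21). Cartpt, which codes for the CART peptide and is known to respond to psychostimulants, lay at 9.02, 7.21 and 7.51 CPM against 9.25, 11.1 and 11.1 (-0.40 ± 0.21). In both genes the highest perseverer and the lowest renouncer differ by less than 1 CPM.

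The other measured members of the list had overlapping groups, with fold changes from -0.25 for Scg2, a secretory granule protein, to 0.04 for Vgf, a granule protein precursor, and Tac2, the neurokinin B precursor. Markers of inhibitory neurons lay with the peptide genes: 17 of 22 were negative with a median of -0.14, and the lists share Sst, Vip and other members. Pvalb, the calcium-binding protein of fast-spiking interneurons, belongs to the inhibitory list and not to the peptide list. It stood at 106, 95.5 and 156 CPM in perseverers and at 106, 167 and 223 in renouncers, which overlap (-0.47 ± 0.26; -0.21 without renouncer replicate 3). The mean log2 CPM of the inhibitory list lay at 5.21, 5.38 and 4.98 in perseverers and at 5.39, 5.25 and 5.45 in renouncers, with perseverer replicate 3 lowest. Transcripts of the peptide list are short (median 1184 bases), and with the length trend of each library removed the peptide median was -0.05 and the inhibitory median -0.02. With single libraries left out the peptide median ran from -0.29 (without perseverer replicate 2) to -0.04 (without perseverer replicate 3). The part of inhibitory cell content in the peptide values was not tested.

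**Figure D1:**
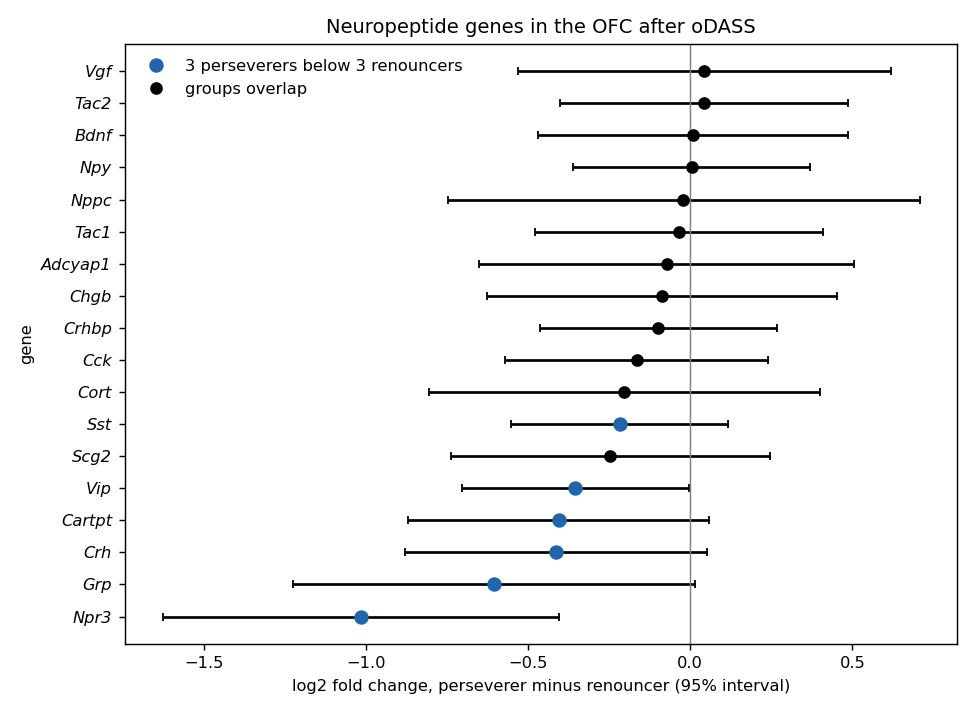
Fold changes of the 18 measured genes of the neuropeptide list in the OFC. Points are log2 fold changes, perseverer minus renouncer (3 against 3 libraries), bars are 95% intervals, and blue points mark the 6 genes in which the groups do not overlap. Npr3, which codes for a receptor, has the lowest value, -1.02, and 4 genes lie above 0.

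The genes with the smallest p were taken next, 12 with a positive and 12 with a negative fold change. In these 24 genes the unadjusted p did not exceed 0.0121, and the edgeR adjusted p was 0.951 for each. They were picked for a small p, so the separation of their groups (12 of 12 genes and 11 of 12 genes without overlap) follows from the choice and is given as a description.

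Kcnk3 codes for TASK-1, a background potassium channel that helps to set the resting potential, and lies on chromosome 5 (30588170 to 30625270, GRCm38). Its levels were 19.7, 22.0 and 24.0 CPM in perseverers and 13.3, 14.0 and 14.7 in renouncers, a log2 fold change of 0.64 ± 0.17. The renouncers lie within 2 CPM of each other, and each perseverer is at least 5 CPM above them. Kcnt2, a sodium-activated potassium channel gene on chromosome 1 (140245657 to 140614045), stood the other way, at 18.5, 15.5 and 12.4 CPM against 22.2, 21.1 and 26.8 (-0.59 ± 0.20). Piezo1, a mechanically gated cation channel gene, lay at 3.82, 3.39 and 4.55 CPM against 2.39, 1.36 and 0.794 (1.34 ± 0.42), which rests on 275 counts over the 6 libraries. Another annotated gene covers 24.6% of its exon bases, and the library kit does not keep the strand, so the value of Piezo1 is uncertain. The 21 measured two-pore, inward-rectifier and HCN channel genes had a median fold change of 0.02, as did the 28 voltage-gated potassium channel genes.

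In Wnt signalling secreted ligands act through Frizzled receptors and Dishevelled. Of the 24 genes chosen by p, Sfrp1, Nkd1 and Shisa3 are known as inhibitors of it, and were grouped after they had been picked. The share of such inhibitors over all genes was not counted, so the grouping is a description. Sfrp1, a secreted protein that binds Wnt ligands, stood at 34.8, 30.0 and 36.5 CPM in perseverers and at 22.5, 24.9 and 19.6 in renouncers (0.59 ± 0.17; 0.50 to 0.67 over the leave-outs). Nkd1, which binds Dishevelled inside the cell, stood at 29.8, 26.3 and 26.1 against 21.2, 17.6 and 16.8 CPM (0.56 ± 0.17). In both genes the groups do not overlap. Shisa3, an inhibitor that retains Frizzled receptors in the endoplasmic reticulum, lay lower in perseverers, at 0.116, 0.323 and 0.722 CPM against 0.644, 4.72 and 1.98. Its groups overlap, its counts, 128 in all, are highest in renouncer replicate 2, and the log2 fold change was -2.67 ± 0.79. Wnt7b, a ligand made by cortical neurons, was at 79.0, 73.9 and 83.3 CPM against 72.0, 55.9 and 52.5 (0.39 ± 0.16). The Wnt list holds neither Nkd1 nor Shisa3. Over its 31 measured genes, 21 were positive and 10 negative with a median of 0.07. In 2 of them, Sfrp1 and Wnt7b, the groups did not overlap, near the share over all genes (5.47% higher).

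The next genes were chosen by p alone and share no list. Plce1, a phospholipase C that is activated by Ras-family proteins, stood at 6.13, 8.67 and 12.1 CPM in perseverers and at 4.42, 4.65 and 4.03 in renouncers (1.03 ± 0.28). Nfatc3, a transcription factor that calcineurin moves into the nucleus, stood at 7.35, 7.11 and 9.97 against 5.20, 3.64 and 4.56 CPM (0.85 ± 0.26). In both genes perseverer replicate 3 is the highest library. Cracr2a, a regulator of store-operated calcium channels, lay at 0.231, 0.485 and 0.578 CPM against 1.10, 1.64 and 1.52 (-1.71 ± 0.53), which rests on 91 counts. Stk35, a nuclear serine/threonine kinase gene, had close values within each group, 35.8, 36.8 and 36.8 CPM against 27.6, 26.1 and 23.3 (0.51 ± 0.15). Arhgef26, an exchange factor for small GTPases, stood at 60.0, 71.4 and 70.7 CPM against 52.7, 47.1 and 40.7 (0.52 ± 0.16), and another gene covers 21.6% of its exon bases.

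Among the other genes of the 24, chosen by p alone, Etv6, an ETS-family repressor, stood at 26.0, 31.1 and 29.3 CPM in perseverers and at 18.5, 20.4 and 19.4 in renouncers (0.57 ± 0.16). Taf1b, a subunit of the RNA polymerase I selectivity factor, stood at 18.9, 17.1 and 21.4 CPM against 24.8, 29.5 and 28.0 (-0.52 ± 0.17). Zfc3h1, which links nuclear polyadenylated RNA to the exosome, was at 10.5, 5.71 and 6.93 CPM against 13.5, 13.1 and 12.3 (-0.75 ± 0.25). The renouncers are tight for Zfc3h1, and perseverer replicate 1 lies nearest to them. Zfp930, a zinc finger gene, stood at 24.6, 17.3 and 19.7 CPM against 26.7, 29.5 and 34.5 (-0.56 ± 0.19), and Abitram, an actin-binding transcription modulator, at 24.4, 21.6 and 24.9 against 17.4, 16.9 and 11.5 (0.63 ± 0.20). The remaining genes of the 24 were Alas2, Zswim9, Tmem161b, Tmem18, Lipt2, Fam160a1 and Hyls1. Alas2, the erythroid form of the enzyme that starts haem synthesis, stood at 6.19, 11.0 and 7.87 CPM against 3.91, 5.29 and 3.51 (0.98 ± 0.29), while haemoglobin genes took 0.0516%, 0.0645% and 0.0667% of counts in perseverers and 0.0253%, 0.0770% and 0.0562% in renouncers (exact permutation p = 0.8, two-sided, where the smallest possible is 0.1). Tmem18, a nuclear envelope gene known from studies of body weight, stood at 52.9, 42.0 and 45.4 CPM against 66.9, 61.4 and 69.8 (-0.50 ± 0.15). Lipt2, which attaches the lipoyl group in mitochondria, stood at 7.58, 6.30 and 8.88 CPM against 10.6, 11.9 and 15.3 (-0.73 ± 0.23). The other 4 had fold changes of 0.61 (Zswim9), -0.61 (Tmem161b), -1.91 (Fam160a1, 71 counts) and -0.75 (Hyls1, with 45.8% of its exon bases shared with another gene).

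**Figure D2:**
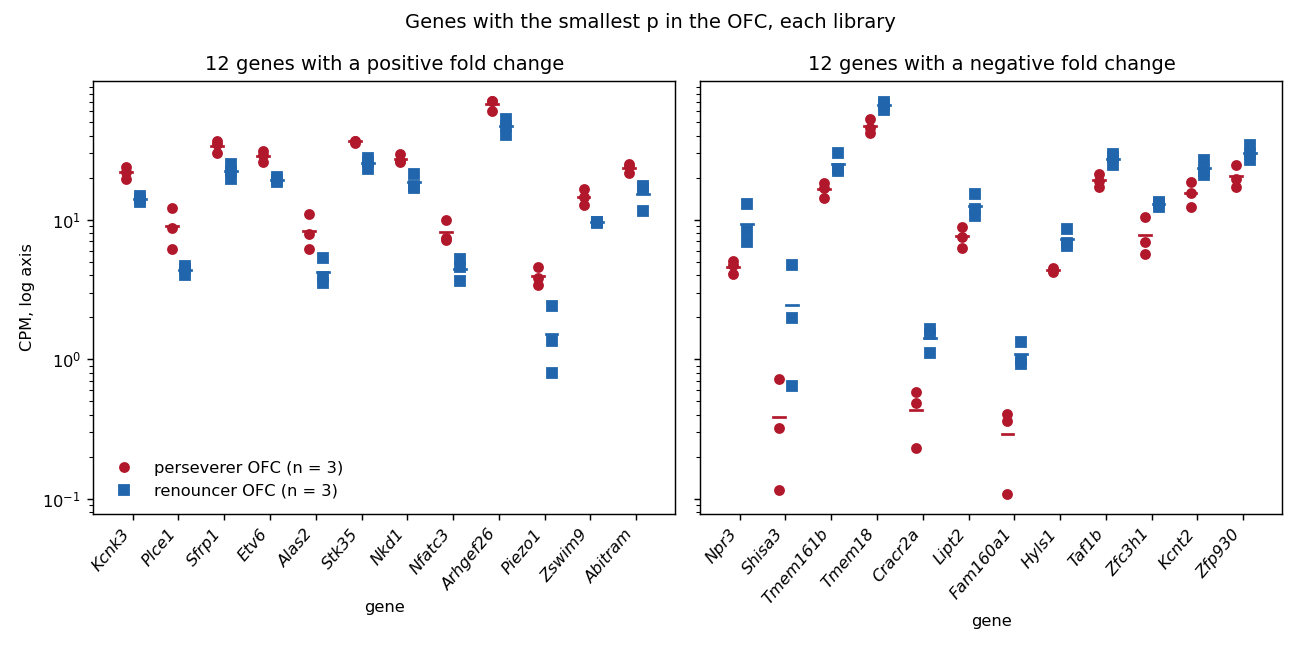
Levels of the 12 genes with a positive and the 12 genes with a negative fold change that had the smallest p. Each point is 1 OFC library in CPM on a log axis (red circles perseverer, blue squares renouncer, 3 each) and short lines are group means. Shisa3 is the 1 gene of the 24 whose groups overlap.

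Postsynaptic scaffold genes and presynaptic vesicle genes lay mostly higher in perseverers. Postsynaptic density scaffolds hold glutamate receptors under the synaptic membrane, and 16 of 18 had a positive fold change, with a median of 0.27 and a range from 0.15 to 0.34 over the leave-outs. The groups did not overlap in 2 of the 18 (5.47% of all genes lay higher without overlap), and 0 passed. Shank1, a master scaffold of the spine, stood at 511, 388 and 736 CPM in perseverers and at 345, 433 and 341 in renouncers. Perseverer replicate 2 lies below renouncer replicate 2, and the log2 fold change was 0.55 ± 0.23 (0.27 without perseverer replicate 3). Dlgap2, which joins Shank proteins to PSD-95, stood at 103, 97.5 and 108 CPM against 90.5, 78.7 and 84.4, without overlap (0.28 ± 0.14). Homer3, named after its values were seen, stood at 16.0, 17.1 and 18.6 CPM against 14.9, 15.9 and 15.3 (0.16 ± 0.17), with 25.4% of its exon bases shared with another gene. Scaffold genes are long (median 6506 bases), and with the length trend removed the median was 0.18.

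On the presynaptic side, 22 of 28 vesicle and active zone genes were positive with a median of 0.16 (0.08 with the length trend removed), and the groups did not overlap in 3, each higher in perseverers (5.47% of all genes), Vamp2 and Syn1 among them. Vamp2, the vesicle SNARE of fast transmitter release, stood at 1470, 1520 and 1730 CPM in perseverers and at 1270, 1280 and 1260 in renouncers. The renouncers lie close together, and the log2 fold change was 0.31 ± 0.16. Syn1, which tethers vesicles to actin, stood at 541, 725 and 554 CPM against 533, 483 and 465 (0.30 ± 0.17). Pan-excitatory neuron markers had a median of 0.16 with 7 of 12 positive, and of 0.00 without perseverer replicate 2. Neurexin, neuroligin and LRRTM genes were positive in 10 of 19 with a median of 0.03 (-0.06 with the length trend removed).

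Receptor lists differed in their medians. The NMDA list also takes in Srr, which codes for an enzyme and not a receptor subunit (log2 fold change 0.22). AMPA receptor and auxiliary subunit genes had 11 of 15 positive and a median of 0.11, NMDA receptor genes 4 of 8 and -0.01, kainate and delta receptor genes 7 of 9 and 0.23, metabotropic glutamate receptor genes 4 of 7 and 0.03, and GABA-A receptor genes 6 of 15 and -0.09. Grin2b, the NMDA subunit that prolongs the receptor's currents, stood at 51.5, 79.4 and 58.5 CPM in perseverers and at 60.8, 74.4 and 80.6 in renouncers, which overlap, with a log2 fold change of -0.19 and a 95% interval from -0.61 to 0.23. Shisa6, an auxiliary protein of AMPA receptors, was low at 3.01, 4.09 and 2.53 CPM against 2.02, 2.43 and 1.85 (0.62 ± 0.35).

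The dopamine list of receptor, synthesis and breakdown genes also takes in Ppp1r1b, which is none of these. Of the 10 measured genes of the list 6 were positive, with a median of 0.11, which turned to -0.13 without renouncer replicate 2. Drd1, the dopamine D1 receptor, stood at 14.8, 10.1 and 13.3 CPM in perseverers and at 15.8, 10.4 and 14.5 in renouncers. The groups overlap almost entirely, and the interval of the log2 fold change ran from -0.60 to 0.41. Maob, the monoamine oxidase of astrocytes, stood at 77.7, 59.6 and 105 CPM against 64.4, 72.1 and 51.0 (0.37 ± 0.21; 0.13 without perseverer replicate 3), and Penk, the enkephalin precursor, at 86.5, 105 and 67.2 against 105, 104 and 122 (-0.36 ± 0.18).

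Activity-induced genes showed no common direction. Immediate early transcription factors were positive in 12 of 20 with a median of 0.04, and activity-induced effector genes in 8 of 22 with a median of -0.06. Fos stood at 29.3, 57.6 and 29.8 CPM in perseverers and at 59.8, 33.7 and 49.3 in renouncers, with a 95% interval from -0.91 to 0.33. Arc, a synaptic effector, stood at 1050, 1050 and 1680 CPM against 1050, 1060 and 669, an interval from -0.08 to 0.97, and Bdnf at 37.3, 49.2 and 25.6 against 39.3, 34.1 and 38.0, an interval from -0.47 to 0.49. In each of these 3 genes the groups overlap. Fosl2, a slower Fos-family member, stood at 17.7, 18.8 and 19.0 CPM against 15.1, 13.5 and 13.3, without overlap (0.40 ± 0.17). Sik1, a kinase induced by cyclic AMP that acts back on CREB coactivators, stood at 18.7, 23.7 and 25.1 CPM against 17.4, 15.9 and 15.4 (0.47 ± 0.18). Among calcium kinase, calcineurin and ERK pathway genes 17 of 26 were positive with a median of 0.06. Camk2a, the main kinase of the spine, stood at 2450, 2340 and 3330 CPM against 1890, 2590 and 1590, which overlap (0.42 ± 0.22; 0.24 without perseverer replicate 3), and Prkcb, a protein kinase C gene, at 1140, 1080 and 1370 against 1050, 1060 and 895, without overlap (0.26 ± 0.17).

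Clock genes, which form a transcriptional feedback loop that runs with the day, were positive in 17 of 21 with a median of 0.19 (0.12 to 0.25 over the leave-outs). Per2, a repressor of the loop, stood at 23.4, 36.6 and 33.7 CPM in perseverers and at 22.1, 25.1 and 22.4 in renouncers, with perseverer replicate 1 inside the renouncer range (0.43 ± 0.19). Rora, an activator of the loop, stood at 68.1, 72.2 and 93.0 CPM against 59.4, 60.3 and 64.9, without overlap (0.34 ± 0.16), and Per3 at 16.1, 17.2 and 24.0 against 16.5, 10.6 and 14.9, which overlap (0.44 ± 0.23). The time of day of dissection was not given in the sources used here. Histone deacetylase and DNA methylation genes were positive in 17 of 25 with a median of 0.17. The groups did not overlap in 5 of them, 4 higher in perseverers (5.47% of all genes) and Sirt1 lower (3.72%). Dnmt3a, a DNA methyltransferase, stood at 43.4, 38.1 and 48.5 CPM against 36.8, 35.0 and 37.1 (0.25 ± 0.15), and was named after its values were seen.

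Growth factor genes were positive in 14 of 22 with a median of 0.14. The groups did not overlap in 5 of the 22 with perseverers higher, Fgfr2 among them (5.47% of all genes). They did not overlap in 1, Ntrk3, with perseverers lower (3.72% of all genes). Fgfr2, a fibroblast growth factor receptor of glia and neurons, stood at 84.0, 79.5 and 80.2 CPM in perseverers and at 76.1, 55.9 and 45.9 in renouncers, where renouncer replicate 1 lies near the perseverers (0.45 ± 0.19). Ntrk3, the receptor for neurotrophin 3, stood at 17.4, 21.2 and 16.2 CPM against 23.7, 25.4 and 23.1, without overlap in the other direction (-0.40 ± 0.17). In the integrated stress response list, 12 of 20 were positive, and Eif2s1, the translation initiation factor subunit whose phosphorylation starts that response, stood at 63.3, 49.8 and 55.6 CPM against 64.4, 71.5 and 84.1 (-0.38 ± 0.16). Among perineuronal net and matrix genes (10 of 15 positive, median 0.18), Mmp9, a matrix protease that cleaves the net, stood at 1.56, 1.72 and 1.88 CPM against 0.920, 0.643 and 0.860, a log2 fold change of 1.07 ± 0.43 that rests on 127 counts.

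Cell type markers were read in the same way. Upper-layer neuron markers were positive in 10 of 14 with a median of 0.17 (0.03 without renouncer replicate 3, 0.07 with the length trend removed) and deep-layer markers in 15 of 18 with a median of 0.10. Cux2 stood at 44.8, 58.0 and 50.8 CPM in perseverers and at 41.3, 39.0 and 34.4 in renouncers (0.42 ± 0.16), and Lhx2, a transcription factor of the same layers, at 95.8, 97.5 and 91.9 against 86.6, 68.3 and 68.6 (0.35 ± 0.15), each without overlap. Astrocyte markers had 13 of 15 positive and a median of 0.13, myelin markers 14 of 18 and 0.11 (-0.03 without perseverer replicate 1), oligodendrocyte precursor markers 9 of 12 and 0.11, and microglia markers 8 of 15 and 0.03. Markers of neighbouring regions that a dissection could include had medians of 0.15 for claustrum and insula (0.02 without perseverer replicate 1), -0.01 for piriform cortex and olfactory tubercle (6 of 12 genes measured) and -0.05 for striatal projection neurons.

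Endothelial genes had 14 of 17 positive and a median of 0.19, and 3 of them, Cldn5, Kdr and Slco1a4, lay higher without overlap (5.47% of all genes). Kdr, the main VEGF receptor, stood at 10.2, 8.78 and 7.22 CPM in perseverers and at 5.20, 4.93 and 6.68 in renouncers (0.64 ± 0.24). Flt1, a sister receptor, stood at 23.7, 24.9 and 30.7 CPM against 24.4, 16.7 and 15.2, which overlap, and Slco1a4, an organic anion transporter of brain capillaries named after its values were seen, at 27.6, 27.6 and 33.7 against 25.2, 19.4 and 23.6. The mean log2 CPM of the list was 4.47, 4.37 and 4.50 in perseverers against 4.33, 4.23 and 3.97 in renouncers, with renouncer replicate 3 lowest, and pericyte and smooth muscle markers followed with a median of 0.09.

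Meningeal fibroblast and matrix genes were negative in 15 of 15, with a median of -0.36 that became 0.25 without renouncer replicate 2 and -0.78 without renouncer replicate 3. The mean log2 CPM of the list was 4.01 in renouncer replicate 2 and between 1.89 and 2.92 in the other 5 libraries. Mgp, matrix Gla protein, stood at 12.8, 20.6 and 29.7 CPM in perseverers and at 17.9, 111.3 and 17.6 in renouncers, and was named after its values were seen. Col1a1, a fibrillar collagen, stood at 1.27, 2.31 and 3.97 CPM against 2.85, 11.3 and 3.24. In both genes the high renouncer level comes from renouncer replicate 2. Infiltrating immune markers (median -0.27, and 0.58 without renouncer replicate 2) and interferon-stimulated genes (-0.15, and 0.31) likewise had a median of the other sign without that library. Their mean log2 CPM there was 2.43 and 3.98, against at most 1.59 and 3.36 elsewhere.

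**Figure D3:**
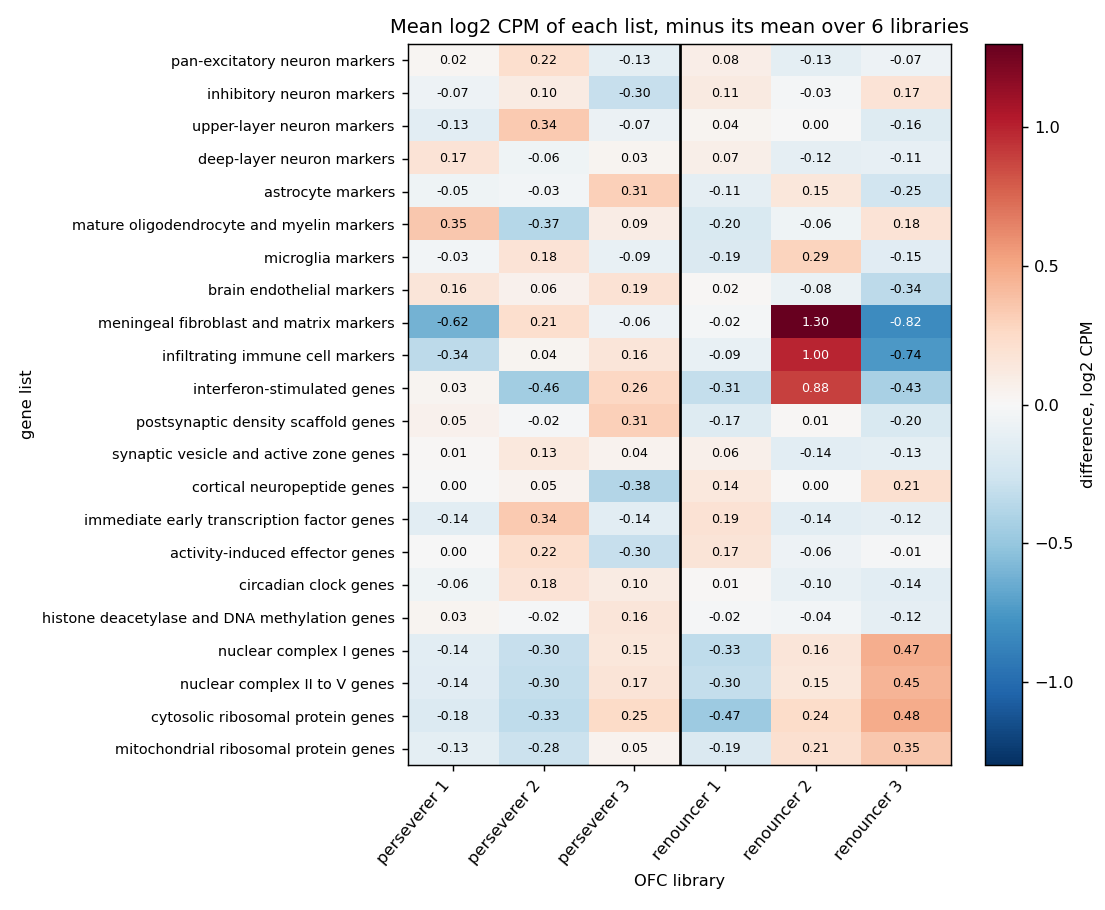
Level of 22 gene lists in each OFC library. Each cell gives the mean log2 CPM of a list's measured members in that library minus its mean over the 6 libraries, with red for higher and blue for lower. Renouncer replicate 2 has the highest meningeal, immune and interferon values, and renouncer replicate 3 the highest values of the respiratory chain and ribosomal lists.

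Genes of the respiratory chain and of ribosomes lay lower in perseverers with small fold changes. Nuclear genes of complex I, which passes electrons from NADH into the chain, were negative in 36 of 37 with a median of -0.22, and those of complexes II to V in 33 of 37 with a median of -0.23. Cytosolic ribosomal protein genes were negative in 70 of 78 (median -0.20) and mitochondrial ribosomal protein genes in 40 of 42 (median -0.26). Groups did not overlap, with perseverers lower, in 1 of 37, 0 of 37, 1 of 78 (Rpl5) and 4 of 42 (Mrpl2, Mrpl3, Mrpl15 and Mrps6), against 3.72% of all genes. Perseverers lay higher without overlap for Rpl24, at 1.21, 1.13 and 1.3 CPM against 1.01, 1.0 and 1.06. Mrpl2, Mrpl3 and Rpl24 are named because their groups do not overlap, chosen after their values were seen. Mrps6, a protein of the small mitochondrial ribosomal subunit, stood at 53.5, 47.4 and 51.5 CPM against 55.9, 65.9 and 72.9 (-0.35 ± 0.16), and Mrpl15, of the large subunit, at 67.7, 69.3 and 68.8 against 70.4, 88.4 and 116 (-0.41 ± 0.18). The perseverers are close together for Mrpl15, and renouncer replicate 1 lies next to them. Rpl5, a cytosolic ribosomal protein gene, stood at 19.4, 14.8 and 18.1 CPM against 19.4, 21.2 and 23.3 (-0.29 ± 0.18; 26.7% of its exon bases shared).

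These 4 lists were also read against the length trend of the libraries. Their transcripts are short, with median lengths of 908, 764, 740 and 996 bases. To measure that trend, the deviation of each gene from its mean log2 expression over the 6 libraries was correlated with gene length (Spearman) in each library, using the 8383 genes whose mean log2 CPM exceeded 4. The coefficients were 0.251, 0.374 and -5.1e-04 for the perseverer libraries and 0.289, -0.36 and -0.42 for the renouncer libraries (exact permutation p = 0.3, two-sided, with 0.1 the smallest possible). With the trend removed the medians were -0.02 for complex I, -0.04 for complexes II to V, -0.02 for cytosolic and -0.13 for mitochondrial ribosomal proteins. Without renouncer replicate 3 they were -0.03, -0.04, 0.00 and -0.15. The removed trend was fitted over all tested genes, these lists included, so its removal takes out a shift of short genes whatever its cause. The cause was not tested. The mean log2 CPM of complex I genes in the perseverers was 7.87, 7.71 and 8.16, against 7.68, 8.17 and 8.48 in renouncers, so that renouncer replicate 1 was the lowest library and renouncer replicate 3 the highest.

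**Figure D4:**
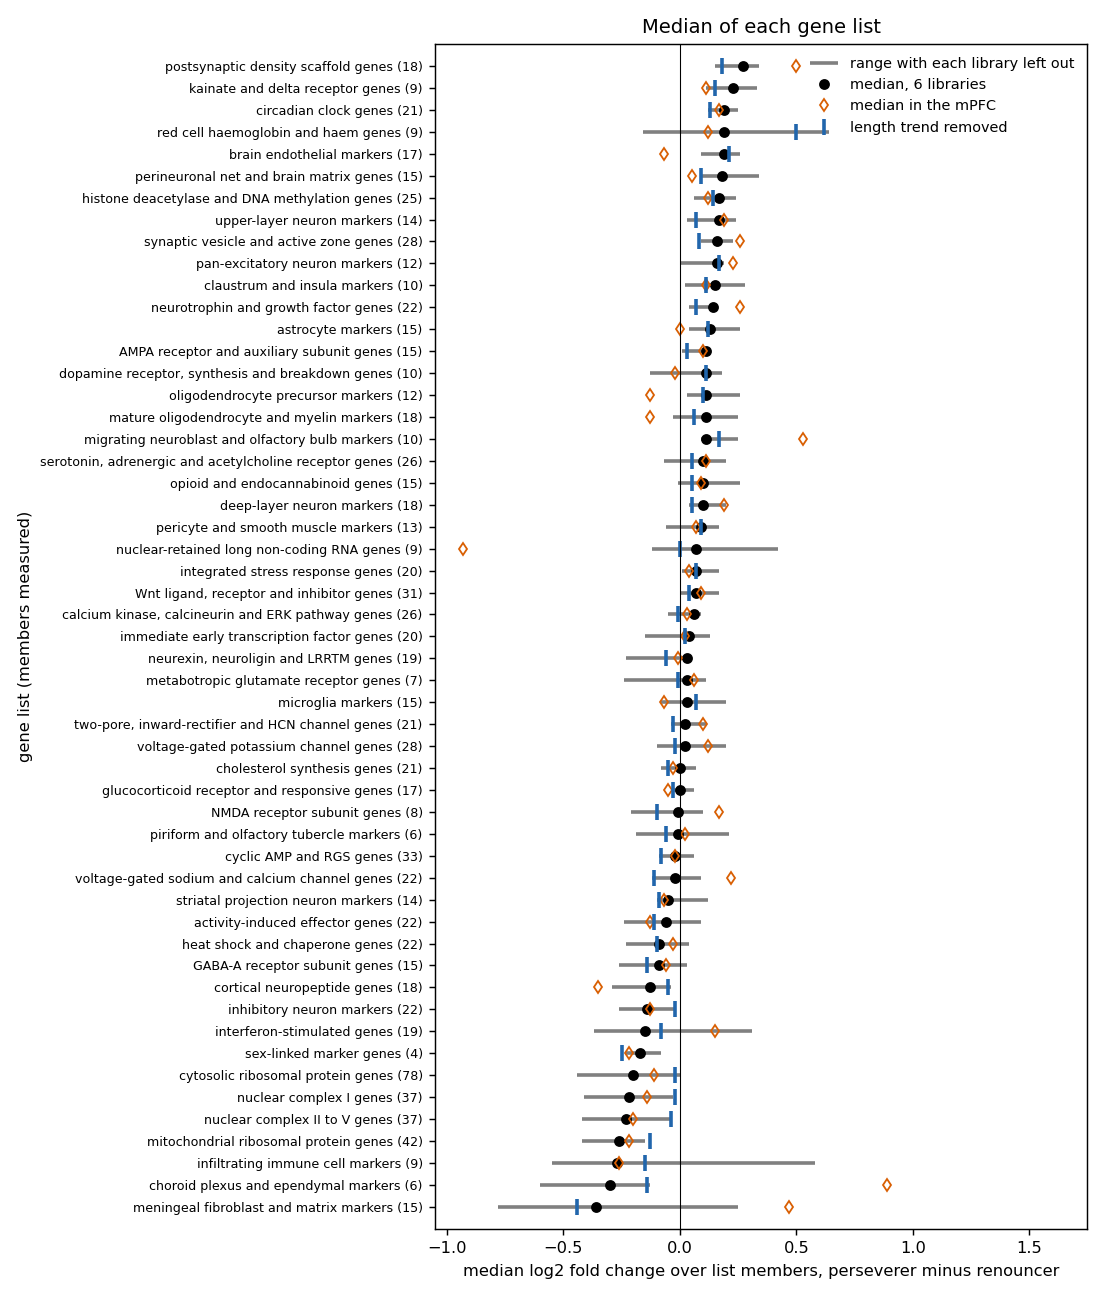
Median log2 fold change, perseverer minus renouncer, of the 53 gene lists with a measured member. Black points are medians over the 6 OFC libraries, grey lines the range when each library is left out, blue ticks the median with the length trend removed and open diamonds the median in the mPFC. Scaffold genes have the highest OFC median (0.27) and meningeal genes the lowest (-0.36), and the grey line of the latter crosses 0.

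The lists together showed no excess of separated genes. They hold 979 different measured genes, of which 66 (6.74%) had groups without overlap, against 9.19% of all genes, and 23 (2.35%) had an unadjusted p under 0.05, against 2.58%. Medians were above 0 in 32 of 53 lists and below 0 in 19.

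The mPFC dissections were set beside the OFC to describe its leading genes and lists in another prefrontal region. They are other libraries, and the labels do not say whether they come from the same animals, so the regions are not shown to be independent. Deviations from the group means of OFC and mPFC libraries with the same phenotype and number correlated at over 0.1 in 5 of 6 pairs. In the mPFC 0 of 15025 genes passed the adjusted threshold with edgeR (1148 at an unadjusted p under 0.05, 7.64%). All 12 of the higher OFC genes had a positive fold change there (50.5% of all genes did), and 10 of the 12 lower OFC genes a negative one. Stk35 stood at 34.6, 32.0 and 51.3 CPM in perseverer mPFC against 26.5, 24.5 and 16.4 in renouncers (0.81 ± 0.21), and Zfp930 at 27.2, 13.8 and 17.1 against 31.7, 34.4 and 28.5 (-0.70 ± 0.23). For both genes the groups do not overlap in either region. Kcnk3 was at 21.2, 14.5 and 22.8 CPM against 15.4, 18.7 and 13.8, which overlap (0.29 ± 0.20), and Npr3 at 9.76, 2.89 and 8.40 against 10.3, 9.69 and 7.71, which overlap as well (-0.39 ± 0.37).

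Genes of the neuropeptide list were negative in 16 of 18 in the mPFC with a median of -0.35. Sst stood at 319, 295 and 338 CPM in perseverer mPFC and at 451, 426 and 625 in renouncers (-0.66 ± 0.16), a wider gap than in the OFC, and the test of that difference between regions gave an unadjusted edgeR p of 0.0649 (0.0308 with libraries of 1 phenotype and number as a block). The block was chosen after seeing the data, and Sst did not pass the adjusted threshold in either fit. Vip stood at 104, 117 and 123 CPM against 171, 165 and 123 (-0.42 ± 0.16). For Vip the highest perseverer and the lowest renouncer are equal as rounded. Scaffold genes had 15 of 18 positive and a median of 0.50 in the mPFC, vesicle genes 24 of 28 and 0.26, and clock genes 16 of 21 and 0.17. Endothelial genes had 4 of 17 positive with a median of -0.07, and meningeal genes 12 of 15 with a median of 0.47.

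No gene passed the test of whether its phenotype difference differed between regions. The interaction of phenotype and region, fitted over the 12 dissections with edgeR, gave 0 of 15025 genes past the adjusted threshold and 225 at an unadjusted p under 0.05 (1.5%). DESeq2 gave 0 (287 unadjusted) and limma 0 (659). Among the 24 leading OFC genes 1, Alas2, had an interaction p under 0.05 (0.0491, unadjusted edgeR, and 0.0595 with that block). The smallest interaction p values belonged to Gcn1, Rrp12, Adam12, Egfr and Smco3. Gcn1, an activator of the kinase that senses uncharged tRNA, stood at 25.0, 28.7 and 26.1 CPM in perseverer OFC against 35.5, 28.9 and 30.4 in renouncers, and at 44.7, 49.0 and 47.5 against 25.4, 28.1 and 16.5 in the mPFC. The perseverers lie just below the renouncers in the OFC and far above them in the mPFC, and the difference of the log2 fold changes, OFC minus mPFC, was -1.25 ± 0.26 (edgeR adjusted p = 1.0). Rrp12, a ribosome assembly factor, and Egfr, the epidermal growth factor receptor, had differences of -1.01 ± 0.24 and -1.15 ± 0.28. Adam12, a membrane metalloprotease gene, gave 5.58 ± 1.36 on 106 OFC counts, with 0.0 CPM in 2 of the perseverer mPFC libraries, and Smco3 1.28 ± 0.35 with 95.8% of its exon bases shared with another gene.

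**Figure D5:**
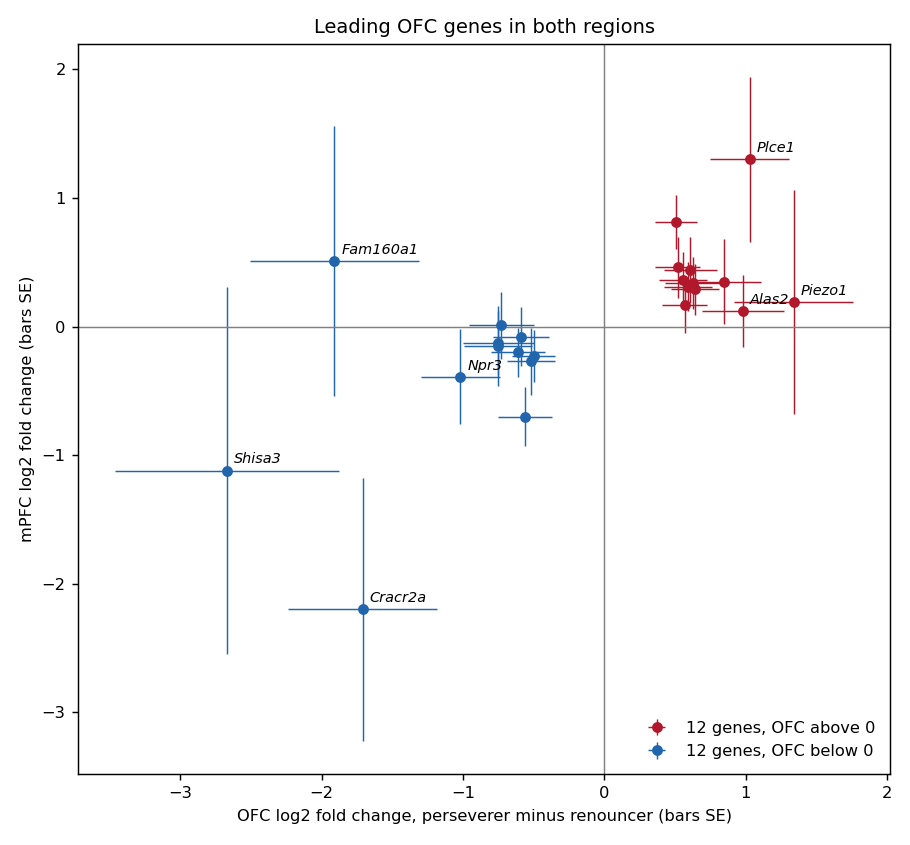
Log2 fold changes, perseverer minus renouncer, of the 24 leading OFC genes in the OFC (horizontal axis) and the mPFC (vertical axis), with bars of 1 SE. The 12 genes above 0 in the OFC (red) lie above 0 in the mPFC, and 10 of the 12 below 0 (blue) lie below 0 there. The genes were chosen on the OFC values.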

How the data were processed

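Total RNA from dissected tissue went through SMART-Seq v4 and Nextera library preparation, per the labels' protocols. These kits do not mark strand. The values are unnormalized counts of each gene, as deposited by the authors, with a gene length in bases. FastQC 0.11.8 and build mm10 are named in the submitters' processing notes, and aligner, counter and annotation were not given in the sources used here. Symbols were matched to RefSeq GRCm38 (99.2%).

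Counts were tested in R 4.3.3 with edgeR 4.0.16 (filterByExpr, TMM, robust quasi-likelihood, two-sided, Benjamini-Hochberg over all genes). SE is the size of the log2 fold change over the root of the F statistic, and intervals use the fit's degrees of freedom. CPM values follow TMM scaling. List levels use log2 CPM with a prior count of 2. The interaction was fitted over 12 dissections. Alternatives were DESeq2 1.42.0, limma 3.58.1 (voom, quality weights), scaling by RLE or the upper quartile, no filter or at least 5 CPM in 3 libraries, a threshold of 0.1, the 12 dissections fitted together, removal of the length trend, the replicate number as a block and leaving out each library.

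The comparison, its genes and its lists were chosen with earlier results of these data known. Named were the 12 ordinary gene symbols with the smallest p in each direction, up to 3 genes a list with the smallest p, the first members of a list, up to 5 genes by the interaction, and genes said to be named after their values were seen; a few that these rules name are not reported here. The tests were checked on simulated data of 14480 genes, where edgeR made 11 false calls among 120. No mitochondrially encoded gene is among the rows used here, so the planned share of such counts was not computed.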

Additional observations from a re-analysis of the deposited data

How the results depend on the processing

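None of the settings run brought a gene past the adjusted threshold in the OFC or for the interaction (upper-quartile scaling and removal of the length trend were run for the OFC alone): 0 in each, a threshold of 0.1 included, except that DESeq2 gave 1 interaction gene, Gcn1, under 0.1 (adjusted p = 0.0992). The share of tested genes at an unadjusted p under 0.05 was less stable. In the OFC, 2.58% became 6.5% with limma and 1.7% with the 12 dissections fitted together, and ran from 1.22% (without renouncer replicate 3) to 8.99% (without renouncer replicate 1) over the leave-outs. For the interaction, 1.5% became 4.39% with limma and ran from 1.02% (without OFC perseverer replicate 1) to 2.71% (without mPFC perseverer replicate 3), with 2.46% without mPFC renouncer replicate 2. The cause was not tested.

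The replicate numbers did not pair perseverer with renouncer OFC libraries. Deviations of libraries of the same number correlated at 0.107, -0.166 and 0.0783, and not every library correlated best with its own number. With the replicate block the OFC gave 0 genes (279 unadjusted) and the interaction 0 (260). OFC and mPFC libraries of the same phenotype and number correlated at 0.106, 0.305 and 0.361 in perseverers and 0.126, 0.0222 and 0.119 in renouncers, with 5 of 6 OFC libraries closest to their own number. The labels do not state such pairs, and the interaction as first fitted did not use them. A replicate block of these pairs, chosen after seeing the data, gave 0 interaction genes and 2.3% unadjusted.

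Of 604 fold changes of 68 named genes under the other settings, 600 kept their sign. Bdnf turned to -0.01 with the stricter filter, -0.04 with the replicate block and -0.09 with the length trend removed, and Drd1 to 0.08 with limma. Over the leave-outs 3 genes turned: Bdnf (-0.24 to 0.22), Drd1 (-0.27 to 0.05) and Mgp (-1.62 to 0.23). Of 795 list medians, 18 moved by more than the spread between libraries, 15 of them in leave-outs. The differences in haemoglobin share, detected genes and length trend moved by less than that spread under each of their alternatives. In the simulated counts, with 3 libraries a group, the edgeR test missed most 1.5-fold differences.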

Other observations

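A few lists had medians far apart in the OFC and the mPFC, a difference that was not tested for lists. Nuclear-retained long non-coding RNA genes had a median fold change of 0.07 in the OFC and -0.93 in the mPFC, with 2 of 9 at an unadjusted interaction p under 0.05 (edgeR; 1.5% of all genes) and 0 past the adjusted threshold. Choroid plexus and ependymal genes had medians of -0.30 and 0.89 over 6 measured genes. Markers of migrating neuroblasts had 0.11 and 0.53.

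Genes detected after thinning each library to 13997596 counts numbered 17319, 16924 and 16929 in perseverer OFC and 17248, 16879 and 16930 in renouncer OFC (exact permutation p = 0.7, two-sided, smallest possible 0.1).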
